A study of Mus musculus with 12 samples.

Results

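The 43 genes described here encode proteins that copy DNA or carry out mitosis. They were found by gene symbol in both expression tables, which were joined by gene identifier, and were 43 of 55401 listed genes. By role, 19 act in DNA replication and 24 in mitosis, and they lie on 16 chromosomes, 9 of them on chromosome 2 (mm10, GENCODE M21). All 43 were among the 14864 genes that passed the filter on low values, which asked for at least 1 FPKM in at least 3 of the 12 libraries. FPKM, the deposited unit, counts fragments per kilobase of transcript, scaled to the mapped fragments of the library. Skin of the back (dorsal skin) of C57BL/6J mice was sampled at day 29, with 4 groups of 3 libraries. These were mice under chronic restrain stress with imiquimod (CRS+IMQ), mice given imiquimod alone (IMQ), mice under chronic restrain stress alone (CRS) and untreated mice (controls). Imiquimod activates Toll-like receptor 7 and causes a psoriasis-like inflammation of mouse skin, and the study asked how psychological stress acts on that model. Nothing in the labels states that replicate libraries are separate animals, so the spread behind every p-value is that of these libraries and may be technical.

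Before S phase, Cdc6 and Cdt1 load a ring of Mcm proteins onto DNA, and cyclin E kinase, Cdc45 and the GINS complex turn that ring into an active helicase. In mitosis, cyclin B with Cdk1 drives entry, the Polo and Aurora kinases build the spindle, and Cdc20 directs the ubiquitin ligase that ends it. In skin these genes are transcribed by dividing basal keratinocytes and by the matrix of growing hair follicles, and psoriatic epidermis is known for increased keratinocyte division. E2F factors act on many replication genes, while late cell cycle genes often carry a CHR element (cell cycle genes homology region) near CCAAT boxes.

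The groups differed in how closely their libraries lay together. Among genes with a group mean of at least 10 FPKM, the median coefficient of variation was 3.80% in CRS+IMQ, 13.4% in IMQ, 4.999% in CRS and 13.3% in control skin. The 9 basal keratinocyte markers were measured in every library and summed to 3051 to 10759 FPKM. The 8 skeletal muscle markers summed to 9824 to 21911 FPKM in control and 35790 to 36768 FPKM in CRS libraries. They summed to 18098.5 to 25264.5 FPKM in IMQ and 10734 to 10934 FPKM in CRS+IMQ libraries. Muscle transcripts were thus present beside skin in all libraries, at levels that differed between groups. Their part in the members' differences was not tested. In such bulk tissue, fewer cells of a type and less RNA per cell cannot be told apart.

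Promoter sequences are shown because the 2 roles are known to be transcribed at different times of the cell cycle and held the motifs of that timing in different shares. The table of promoters (RefSeq, GRCm38.p6) held 34 of the 43 members, 15 of replication and 19 of mitosis. Each window ran from 250 bases before to 50 bases after the transcription start. Both strands were searched for E2F sites (TTTCCCGC, TTTCGCGC, TTTGCCGC or TTTGGCGC), CHR elements (TTTGAA or TTCGAA) and CCAAT boxes (CCAAT). An E2F site was found in 6 of the 15 replication genes (40%), in 1 of the 19 mitosis genes (5.26%) and in 2.6% of all 27025 genes of the table. The 6 were Cdc6, Cdt1, Mcm3, Mcm5, Mcm6 and Mcm7, and the mitosis gene was Cdk1. A CHR element was found in 3 replication genes (20%), in 15 mitosis genes (78.9%) and in 21.7% of all genes. CCAAT boxes were found in 60% of the replication genes, 89.5% of the mitosis genes and 41.1% of all genes. Not in the table were Ccne2, Gins1, Gins2, Mcm4, Aurkb, Ccna2, Foxm1, Kif20a and Tpx2.

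The following stretches of 180 bases, written 5′ to 3′ on the strand of the gene, are 3 replication and 4 mitosis promoters on GRCm38.p6. They were chosen to show the arrangement of the matches, and capitals mark E2F sites, CHR elements and CCAAT boxes on either strand. Mcm5 lies at chr8:75109329-75109508, plus strand, Mcm6 at chr1:128359706-128359885, minus strand and Cdc6 at chr11:98907971-98908150, plus strand. Cdk1 lies at chr10:69352913-69353092, minus strand, Mki67 at chr7:135716380-135716559, minus strand, Top2a at chr11:99024190-99024369, minus strand and Ccnb2 at chr9:70421555-70421734, minus strand.
Mcm5: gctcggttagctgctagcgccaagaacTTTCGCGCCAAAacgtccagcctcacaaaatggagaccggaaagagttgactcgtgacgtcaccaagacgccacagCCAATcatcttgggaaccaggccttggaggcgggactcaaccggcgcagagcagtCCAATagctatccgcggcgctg
Mcm6: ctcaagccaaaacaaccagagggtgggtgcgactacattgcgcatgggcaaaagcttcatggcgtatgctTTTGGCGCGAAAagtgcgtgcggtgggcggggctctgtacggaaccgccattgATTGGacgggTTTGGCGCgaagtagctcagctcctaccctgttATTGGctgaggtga
Cdc6: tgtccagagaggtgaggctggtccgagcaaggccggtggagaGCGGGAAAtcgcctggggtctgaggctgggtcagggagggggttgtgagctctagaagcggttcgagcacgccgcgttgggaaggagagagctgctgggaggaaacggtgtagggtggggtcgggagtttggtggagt
Cdk1: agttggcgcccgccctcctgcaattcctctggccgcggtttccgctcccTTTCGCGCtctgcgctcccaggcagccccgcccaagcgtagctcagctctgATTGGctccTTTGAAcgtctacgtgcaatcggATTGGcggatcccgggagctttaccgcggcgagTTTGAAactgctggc
Mki67: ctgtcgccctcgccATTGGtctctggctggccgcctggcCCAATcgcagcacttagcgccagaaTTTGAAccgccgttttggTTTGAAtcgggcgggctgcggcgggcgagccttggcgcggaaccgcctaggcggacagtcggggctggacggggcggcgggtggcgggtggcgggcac
Top2a: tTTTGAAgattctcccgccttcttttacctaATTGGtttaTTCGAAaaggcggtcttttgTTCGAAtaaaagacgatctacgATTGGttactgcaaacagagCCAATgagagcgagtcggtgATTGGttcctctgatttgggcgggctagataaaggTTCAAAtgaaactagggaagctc
Ccnb2: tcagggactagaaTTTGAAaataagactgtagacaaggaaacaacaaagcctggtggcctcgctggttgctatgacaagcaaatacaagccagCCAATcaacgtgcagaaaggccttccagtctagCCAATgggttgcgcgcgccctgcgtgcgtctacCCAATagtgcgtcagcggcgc
In the Mcm5 and Mcm6 stretches, E2F matches on opposite strands overlap each other, so they are not separate places. Top2a held 4 CHR elements and 4 CCAAT boxes in this stretch, and Mki67 held 2 of each. Cdk1 was the only mitosis gene of the 19 with both an E2F site and CHR elements. A match describes the letters of the window and shows no binding.

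By group means the members were highest with imiquimod alone, in a ranking that runs across the 2 deposited tables. IMQ libraries 2 and 3 stood above all 3 CRS libraries in 42 and 40 members, against 57.5% and 50.8% of all genes tested. IMQ library 1 lay below all 3 CRS libraries in 28 members (65.1%), against 34.9% of all genes tested. The IMQ mean was the highest group mean in 42 of 43 members (97.7%), against 28.3% of all genes tested, and Prc1, a crosslinker of spindle microtubules, was the exception. The control mean was the lowest in 37 members (86%), against 21.9% of all genes, including all 19 replication members and 18 of the 24 mitosis members. The median of the group means over the replication members was 4.66 FPKM in CRS+IMQ, 8.83 FPKM in IMQ, 6.02 FPKM in CRS and 3.26 FPKM in control skin. Over the mitosis members it was 4.46 FPKM in CRS+IMQ, 7.95 FPKM in IMQ, 3.62 FPKM in CRS and 3.21 FPKM in control skin. Pcna, the sliding clamp of the DNA polymerases, was the highest replication member in every group, and Cdc20 was the highest mitosis member. Pcna has a processed pseudogene in the mouse genome, and the treatment of shared reads is not given in the sources used here. In 37 members the IMQ mean was the highest and the control mean the lowest. Among these, the CRS mean stood above the CRS+IMQ mean in 14 replication and 8 mitosis members. The CRS+IMQ mean stood above the CRS mean in 5 replication and 10 mitosis members. Of the remaining mitosis members, CRS stood above CRS+IMQ in Cenpf, Kif23 and Prc1. CRS+IMQ stood above CRS in Bub1b, Cenpa and Nusap1. A difference between the roles in this order was not tested. IMQ and CRS differ in both treatments and were not compared by a test.

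**Figure D1:**
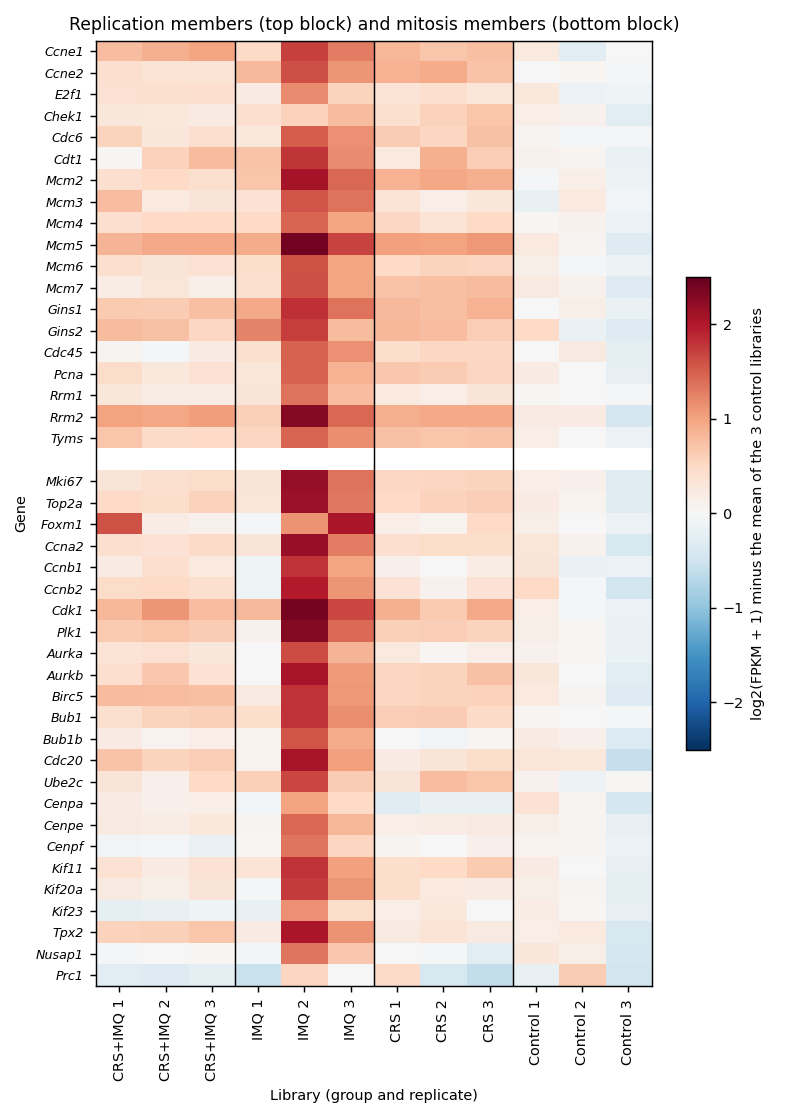
Heat map of log2(FPKM + 1) minus the mean of the 3 control libraries, with the 19 replication members above, the 24 mitosis members below and 1 column per library. IMQ library 2 is the darkest column, IMQ library 1 is pale in the mitosis block, and the 3 CRS columns are darker for replication than for mitosis members.

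In CRS skin, most replication genes were higher than in control skin. Of the 43 members, 26 were higher by limma on log2(FPKM + 1) at a Benjamini-Hochberg adjusted p under 0.05, against 14.8% of all genes tested. By the same limma fit 0 members were lower (also 0 at an unadjusted p under 0.05, where 27 were higher), against 27.2% of all genes. The 26 comprised 17 of 19 replication members and 9 of 24 mitosis members. The median log2 difference was 0.63 for replication and 0.28 for mitosis members, against -0.08 for all genes tested. In 30 members, 18 of replication and 12 of mitosis, every CRS library exceeded every control library, against 21.9% of all genes. Whether the role lists differed from each other was not tested. In the authors' deposited table, 26 members had a q-value under 0.05 and all were higher, 16 of replication and 10 of mitosis, against 13.9% of all genes tested. The authors' own mark of significance did not follow this threshold and left out some of these, such as Mki67 and Pcna. All genes called higher by limma numbered 1279 to 2596 over the fits that left out 1 library. The limma count of members was 15 without CRS library 2, 14 without CRS library 3 and 11 with all 12 libraries in one fit. With the CRS and CRS+IMQ libraries each averaged to 1 sample and the spread taken from the IMQ and control libraries, it was 0 by limma (3 at an unadjusted p under 0.05).

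The genes that commit a cell to S phase were among those that rose. Ccne2, a cyclin E that activates Cdk2 at the start of S phase, had 1.91, 2.02 and 1.61 FPKM in the CRS libraries, against 0.588, 0.639 and 0.519 FPKM in the controls. Its fold over the control mean was 3.17, and the log2 difference was 0.84 ± 0.09 (SE, n = 3 each) with a limma adjusted p of 0.00108. Ccne1, the other cyclin E, had 2.97, 2.65 and 2.76 FPKM under CRS, against 1.65, 0.883 and 1.27 FPKM in controls, with a difference of 0.76 ± 0.14 (limma adjusted p = 0.00690). For both cyclins the lowest CRS library stood above the highest control library. E2f1, a transcription factor of the S phase genes, reached 5.92, 6.36 and 5.77 FPKM in CRS and 5.60, 3.93 and 4.07 FPKM in control skin. Its groups did not overlap either, but the difference of 0.35 ± 0.13 had a limma adjusted p of 0.0692. Chek1, the checkpoint kinase that acts when replication stalls, was at 0.943, 1.19 and 1.38 FPKM in CRS skin, against 0.642, 0.585 and 0.228 FPKM in controls (difference 0.56 ± 0.14, limma adjusted p = 0.0248).

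Licensing and helicase genes followed. Mcm2 had 6.18, 6.67 and 6.25 FPKM in CRS libraries and 2.84, 3.43 and 2.58 FPKM in controls, a difference of 0.90 ± 0.10 (limma adjusted p = 0.00116). Mcm5, whose promoter is printed above, had 11.3, 11.1 and 11.7 FPKM in CRS libraries and 6.16, 5.32 and 3.81 FPKM in controls. This was the largest difference of the 43 on the log2(FPKM + 1) scale, 1.04 ± 0.15 (limma adjusted p = 0.00313). Of the 6 Mcm members only Mcm3 did not pass, with 6.49, 5.68 and 6.19 FPKM in CRS and 4.24, 6.07 and 4.65 FPKM in control skin. Its second control library lay among the CRS values. The loaders moved with the ring: Cdc6 had 1.24, 1.10 and 1.42 FPKM under CRS, against 0.528, 0.426 and 0.409 FPKM in controls (difference 0.63 ± 0.09, limma adjusted p = 0.00292). Gins1, a subunit of the GINS complex that activates the ring, had 4.78, 4.57 and 5.03 FPKM under CRS, against 2.31, 2.65 and 1.92 FPKM in controls (difference 0.82 ± 0.10, limma adjusted p = 0.00183). Cdt1, Cdc45, Gins2 and the other Mcm members passed as well, with differences of 0.45 (Mcm4) to 0.75 (Mcm7).

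At the fork and in nucleotide supply the picture was the same. Pcna had 36.2, 35.4 and 32.8 FPKM in CRS skin, against 25.9, 22.4 and 19.3 FPKM in controls (difference 0.61 ± 0.12, limma adjusted p = 0.00888). Rrm2, the regulated subunit of ribonucleotide reductase, had 10.7, 11.01 and 11.1 FPKM in CRS skin, against 6.22, 6.23 and 3.66 FPKM in controls. Its log2 difference was 0.93 ± 0.18 (limma adjusted p = 0.00904), while the larger subunit Rrm1 differed by 0.25 ± 0.08 (limma adjusted p = 0.0441). Tyms, which makes thymidylate, had 3.31, 3.19 and 3.20 FPKM in CRS and 1.90, 1.55 and 1.32 FPKM in control skin (difference 0.72 ± 0.10, limma adjusted p = 0.00280). In Pcna, Rrm1, Rrm2 and Tyms the CRS and control libraries did not overlap.

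Mitosis genes were divided. Cdk1, the mitotic kinase, had 4.32, 3.52 and 4.47 FPKM in CRS libraries and 2.20, 1.80 and 1.60 FPKM in controls, a difference of 0.83 ± 0.12 (limma adjusted p = 0.00296). Bub1, a kinase of the spindle checkpoint, had 1.37, 1.42 and 1.16 FPKM in CRS libraries and 0.602, 0.542 and 0.508 FPKM in controls (0.58 ± 0.08, limma adjusted p = 0.00305). Plk1, the Polo kinase, had 8.66, 8.78 and 8.37 FPKM in CRS libraries and 6.01, 5.51 and 4.66 FPKM in controls (0.59 ± 0.10, limma adjusted p = 0.00458). Ube2c, the ubiquitin-conjugating enzyme of mitotic exit, had 12.5, 17.3 and 16.3 FPKM in CRS libraries and 10.6, 8.77 and 9.92 FPKM in controls (0.59 ± 0.14, limma adjusted p = 0.0168). These 4 rose without overlap between groups, and Aurkb, Birc5 and Kif11 passed too.

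The general proliferation markers also passed, though not in every fit. Mki67, the Ki-67 antigen, had 8.80, 8.99 and 9.16 FPKM in CRS skin, against 6.73, 6.51 and 4.58 FPKM in controls (difference 0.54 ± 0.14, limma adjusted p = 0.0224). Top2a, the topoisomerase of condensing chromosomes, had 6.58, 6.95 and 7.14 FPKM in CRS skin, against 5.16, 4.67 and 3.32 FPKM in controls (difference 0.57 ± 0.14, limma adjusted p = 0.0216). The calls of Mki67, Top2a and Ube2c were each lost in 3 of the 6 fits that left out 1 library, with limma adjusted p-values of 0.0568 to 0.0720. Control library 3 was the lowest control in 22 of the 24 mitosis members (91.7%), against 49.9% of all genes tested.

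The cyclins B did not pass. Ccnb1, the regulatory partner of Cdk1, had 3.23, 2.83 and 3.40 FPKM in CRS skin and 3.81, 2.41 and 2.47 FPKM in control skin, with a difference of 0.11 ± 0.15 (limma adjusted p = 0.608). Ccnb2 gave 0.27 ± 0.24 (limma adjusted p = 0.407), with 11.1, 9.20 and 11.2 FPKM in CRS and 12.4, 8.27 and 5.91 FPKM in control skin. In both genes control library 1 lay above every CRS library. The difference was below 0 in 4 mitosis members, none of which passed. They were Bub1b, a checkpoint protein (-0.0016 ± 0.16, limma adjusted p = 0.995), Cenpa, the centromeric histone (-0.22 ± 0.20, limma adjusted p = 0.402), Nusap1, a spindle protein (-0.11 ± 0.20, limma adjusted p = 0.687), and Prc1 (-0.18 ± 0.38, limma adjusted p = 0.735). Prc1 had 3.004, 1.19 and 0.879 FPKM in CRS and 1.55, 3.46 and 1.11 FPKM in control skin, so 1 library of each group stood far above the other 2.

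**Figure D2:**
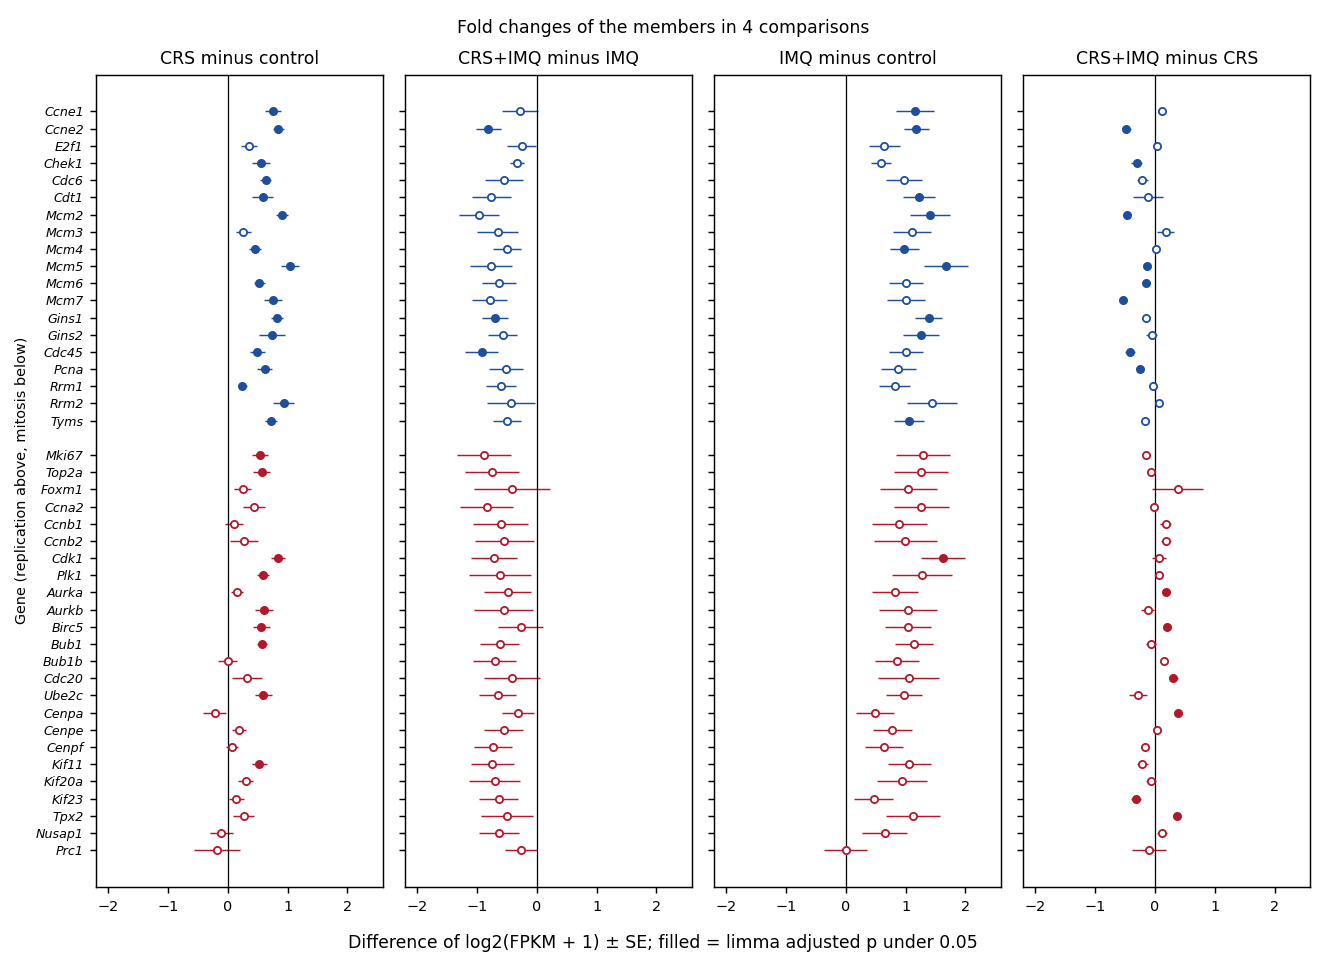
Differences of log2(FPKM + 1) with their SE for each member in 4 comparisons of 3 against 3 libraries, replication members (blue) above and mitosis members (red) below, filled where the limma adjusted p was under 0.05. In CRS minus control 26 points are filled, and in CRS+IMQ minus IMQ all 43 points lie left of 0 but 3 are filled, all of replication genes.

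Within the IMQ group, the same library was the highest and the same library the lowest for nearly every member. Library 2 held the highest value in 41 of 43 members (95.3%), against 54.4% of all genes tested, and library 1 the lowest in 42 members (97.7%), against 52.5%. Library 3 was in the middle in 40 members (93%), against 64.4% of all genes tested. The standard deviation of log2(FPKM + 1) over the 3 libraries had a median of 0.68 over the members, above that of 95.5% of all genes tested, whose median was 0.18. It was 0.06 in CRS+IMQ, 0.08 in CRS and 0.22 in control skin for the same members.

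The range was wider in mitosis than in replication genes. The ratio of library 2 to library 1 had a median of 4.03 over the 24 mitosis members (2.19 to 5.13), 2.32 over the 19 replication members (1.24 to 4.24) and 1.13 over all genes tested. It was at least 3-fold in 22 mitosis and 2 replication members, and at least 2-fold in 40 members (93.0%), against 8.65% of all genes. Plk1 had 5.88, 30.2 and 16.1 FPKM in IMQ libraries 1, 2 and 3, a 5.13-fold range from the first to the second. Aurkb, the kinase of the chromosomal passenger complex, had 3.30, 16.8 and 7.91 FPKM, a 5.09-fold range. Ccnb1 had 2.56, 12.4 and 6.66 FPKM, a 4.84-fold range. In each of these 3 genes library 3 lay between the other two. Mki67 had 7.55, 30.4 and 16.5 FPKM and Top2a had 5.54, 22.8 and 12.2 FPKM in the 3 IMQ libraries, and Cdk1 had 3.99, 13.98 and 8.12 FPKM. Cdc20, the highest mitosis member, had 13.9, 57.5 and 27.6 FPKM.

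Replication genes showed the same order of libraries with a smaller range. Mcm2 had 5.36, 15.6 and 9.64 FPKM in IMQ libraries 1, 2 and 3, and Mcm5 had 10.5, 30.96 and 18.4 FPKM. Pcna had 27.8, 63.97 and 41.5 FPKM, a 2.30-fold range from library 1 to library 2. Ccne2 had 1.77, 3.85 and 2.42 FPKM and Ccne1 had 2.14, 6.34 and 4.42 FPKM. Rrm2, the reductase subunit, had 8.42, 29.5 and 15.95 FPKM, and with Cdc6, at 0.738, 3.13 and 2.22 FPKM, it was 1 of the 2 replication members that ranged over 3-fold. Chek1 was an exception, with 0.960, 1.19 and 1.54 FPKM and its highest value in library 3. Gins2, another GINS subunit, was also apart, with 16.4, 23.7 and 11.9 FPKM and its lowest value in library 3. E2f1 had 5.29, 11.4 and 7.04 FPKM.

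The ratio of summed replication to summed mitosis FPKM therefore differed among the IMQ libraries. It was 1.29 in library 1, 0.80 in library 2 and 0.95 in library 3. It was 0.98 to 0.99 in the CRS+IMQ libraries, 1.13 to 1.20 in the CRS libraries and 0.89 to 1.04 in the controls. IMQ library 1 exceeded all 3 control libraries in 18 of the 19 replication members (94.7%) but in 7 of the 24 mitosis members (29.2%), against 29.9% of all genes tested. The lowest IMQ library thus had replication genes above control, while its share of mitosis genes above all controls was near that of all genes tested. IMQ library 2 exceeded all controls in 19 replication and 23 mitosis members, against 42.8% of all genes tested.

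**Figure D3:**
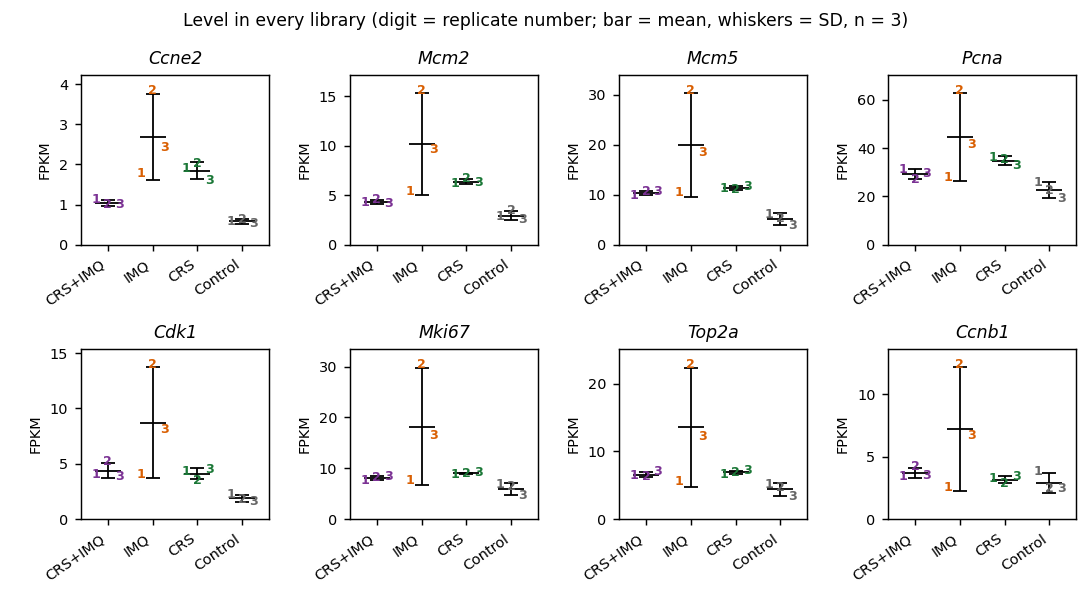
FPKM of 4 replication genes (top) and 4 mitosis genes (bottom) in every library, each digit being a replicate number, with bars for the group mean and whiskers for the SD (n = 3). The 3 IMQ values fan out in every panel, while CRS+IMQ and CRS values lie close together.

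Marker genes of other structures moved with the IMQ spread. The 21 anagen hair follicle markers, which include the inner root sheath keratins, summed to 52.8, 1203 and 517 FPKM in IMQ libraries 1, 2 and 3. They summed to 18.4 to 21.5 FPKM in CRS+IMQ, 248 to 260.5 FPKM in CRS and 11.4 to 14.6 FPKM in control libraries, and none of the 21 was at 0 throughout. The order of the IMQ libraries for hair follicle markers was the same as for the members. The 8 neutrophil markers summed to 283, 22.4 and 149 FPKM in IMQ libraries 1, 2 and 3, the reverse order. Most of that sum was S100a8 (125, 7.64 and 76.00 FPKM) and S100a9 (153, 12.4 and 69.4 FPKM), which keratinocytes also express. The receptor Csf3r did not share this order, at 0.890, 1.23 and 1.43 FPKM, and Ly6g was at 0 in libraries 2 and 3. The 9 basal keratinocyte markers summed to 5125, 3424 and 4507 FPKM in those libraries. Their part in the spread of the members was not tested.

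**Figure D4:**
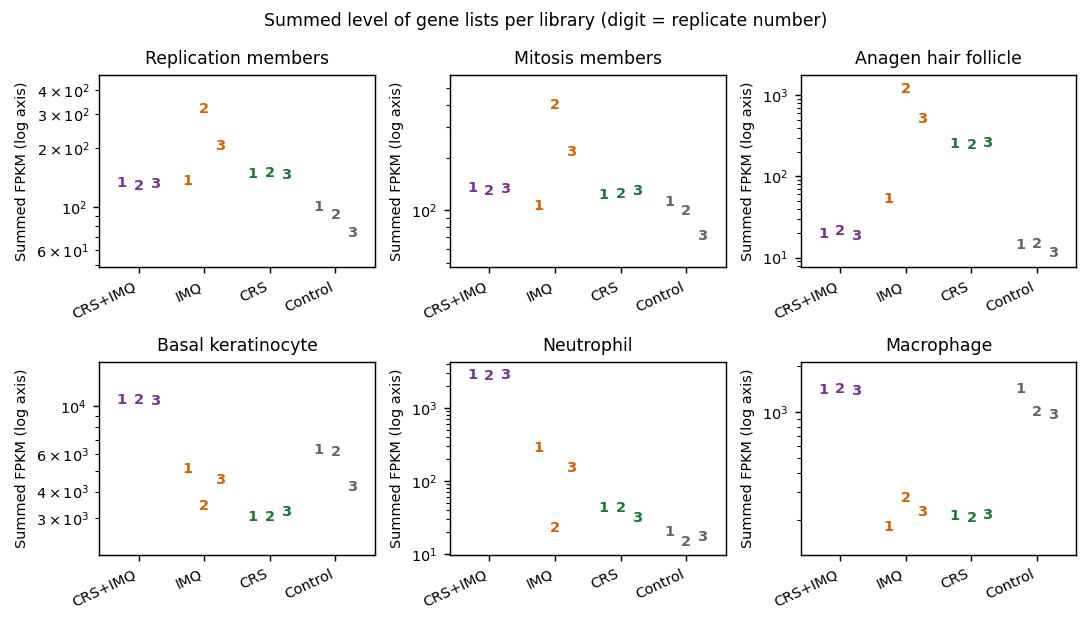
Summed FPKM, on log axes, of the replication members, the mitosis members and 4 marker lists in each library, with digits for the replicate number. IMQ library 2 is the highest of the IMQ libraries for both roles and for hair follicle markers and the lowest for neutrophil and basal keratinocyte markers.

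Adding restraint to imiquimod went with lower estimates for every member, few of which passed. In CRS+IMQ against IMQ skin, 3 of 43 members were lower by limma (adjusted p under 0.05), against 17.6% of all genes tested. By the same limma fit 0 were higher (also 0 at an unadjusted p under 0.05), against 17.8% of all genes. At an unadjusted p under 0.05, 6 members were lower, against 24.9% of all genes. All 43 differences were below 0, with a median of -0.62 against -0.07 for all genes tested. In 10 members, 8 of replication and 2 of mitosis, every CRS+IMQ library lay below every IMQ library, against 29.4% of all genes. The share of members that passed was thus under that of all genes, while their median difference was larger. The count depended on IMQ library 1. Without it 36 members were lower, against 2 without IMQ library 2, 1 without IMQ library 3 and 0 without any 1 of the CRS+IMQ libraries. The count of all genes called lower also changed over these fits, from 1440 to 3624. The authors' deposited table gave 15 members a q-value under 0.05 and all were lower, 7 of replication and 8 of mitosis, against 10.8% of all genes tested. Their own mark of significance differed, leaving out Mcm5 (q-value 0.0192) and including Cdc6 (q-value 0.0792), for example.

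The 3 members that passed, a share under that of all genes tested, were replication genes. Ccne2 had 1.12, 1.02 and 0.993 FPKM in CRS+IMQ libraries, below its 3 IMQ values given above, with a log2 difference of -0.81 ± 0.21 (limma adjusted p = 0.0267). Cdc45, the helicase cofactor, had 2.003, 1.75 and 2.30 FPKM in CRS+IMQ libraries, against 2.75, 6.92 and 5.26 FPKM in IMQ libraries, a difference of -0.92 ± 0.27 (limma adjusted p = 0.0442). Gins1 had 4.16, 4.07 and 4.51 FPKM in CRS+IMQ libraries, against 5.37, 10.7 and 7.46 FPKM in IMQ libraries, a difference of -0.71 ± 0.22 (limma adjusted p = 0.0492). The groups did not overlap in any of these 3. Their calls were lost in 4 or 5 of the 6 fits that left out 1 library, with limma adjusted p-values of 0.0699 to 0.134.

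The other named replication members did not pass. Mcm2 had 4.28, 4.53 and 4.20 FPKM in CRS+IMQ libraries, below all 3 IMQ libraries, and the difference of -0.96 ± 0.33 was the largest of the 43 (limma adjusted p = 0.0694). Mcm5 had 9.88, 10.6 and 10.6 FPKM in CRS+IMQ libraries, with IMQ library 1 inside their range and the other two above it (difference -0.76 ± 0.35, limma adjusted p = 0.143). Pcna had 31.2, 26.95 and 29.3 FPKM (-0.52 ± 0.29, limma adjusted p = 0.207), and Rrm2 had 11.5, 11.2 and 11.9 FPKM (-0.43 ± 0.40, limma adjusted p = 0.437). For both, IMQ library 1 lay within or below the CRS+IMQ values. Chek1 had 0.797, 0.763 and 0.695 FPKM in CRS+IMQ libraries, below all 3 IMQ libraries, with a difference of -0.34 ± 0.12 (limma adjusted p = 0.0667). The estimates of the other 2 regulators were small beside their error, at -0.28 ± 0.30 for Ccne1 (limma adjusted p = 0.507) and -0.25 ± 0.24 for E2f1 (limma adjusted p = 0.455).

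No mitosis member passed in this comparison. Mki67 had 7.61, 8.09 and 8.48 FPKM in CRS+IMQ libraries, against the 3 IMQ values given above, a difference of -0.89 ± 0.45 (limma adjusted p = 0.172). Top2a had 6.48, 6.27 and 6.98 FPKM in CRS+IMQ libraries (-0.75 ± 0.45, limma adjusted p = 0.236), and Cdk1 had 4.06, 5.17 and 3.89 FPKM (-0.72 ± 0.39, limma adjusted p = 0.197). Ccnb1 had 3.42, 4.17 and 3.53 FPKM in CRS+IMQ libraries (-0.61 ± 0.46, limma adjusted p = 0.343). In each of these 4, IMQ library 1 lay within or below the CRS+IMQ range and IMQ libraries 2 and 3 above it. Over all 24 mitosis members, IMQ library 1 was below every CRS+IMQ library in 17, whereas library 2 was above every one of them in 23 and library 3 in all 24. Over all genes tested these shares were 42.7% for library 1 below, 53.2% for library 2 above and 47.8% for library 3 above. Cenpf, a kinetochore protein, had the smallest p of the mitosis members, with 0.782, 0.824 and 0.677 FPKM in CRS+IMQ libraries, against 0.927, 3.77 and 1.73 FPKM in IMQ libraries (-0.74 ± 0.32, limma adjusted p = 0.125). Ube2c and the spindle motor Kif11 followed, with -0.65 ± 0.31 (limma adjusted p = 0.148) and -0.74 ± 0.36 (limma adjusted p = 0.157). Cenpf and Ube2c were the mitosis members whose groups did not overlap. In the authors' deposited table Mki67 had a fold change of 0.444 (q-value 0.00998) and Cenpf one of 0.355 (q-value 0.00235).

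With imiquimod alone, 9 of 19 replication genes and 1 of 24 mitosis genes were higher than in control skin, and the others did not pass. In IMQ skin 10 members were higher than in controls by limma (adjusted p under 0.05), against 5.69% of all genes tested. By the same limma fit 0 were lower (also 0 at an unadjusted p under 0.05), against 12.6% of all genes. At an unadjusted p under 0.05, 29 members were higher, all 19 of replication and 10 of mitosis, against 14.9% of all genes. The median difference was 1.05 for replication and 1.02 for mitosis members, against 0.02 for all genes tested. In 25 members, 18 of replication and 7 of mitosis, every IMQ library exceeded every control library, against 19.3% of all genes. The count was 35 without IMQ library 1, 3 without IMQ library 3, and 2 or 3 without any 1 of the control libraries. All genes called higher numbered 213 to 1285 over the fits that left out 1 library. The comparison runs across the 2 deposited tables, so a difference between tables cannot be told apart from the treatment, and it shares its controls with the comparison of CRS.

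Gins1 had the smallest p among the members, with a difference of 1.38 ± 0.23 (limma adjusted p = 0.00954), followed by Ccne2 with 1.18 ± 0.21 (limma adjusted p = 0.0119). Cdt1, the loading factor, had 5.55, 12.9 and 8.07 FPKM in IMQ libraries, against 3.30, 3.19 and 2.56 FPKM in controls, a difference of 1.23 ± 0.27 (limma adjusted p = 0.0252). Mcm5 gave the largest difference, 1.68 ± 0.37 (limma adjusted p = 0.0254), and its IMQ mean was 3.91 times the control mean. Mcm2 gave 1.40 ± 0.33 (limma adjusted p = 0.0322) and Ccne1 gave 1.15 ± 0.31 (limma adjusted p = 0.0491). Cdk1 was the mitosis member that passed, with 1.62 ± 0.38 (limma adjusted p = 0.0297), and every IMQ library exceeded every control library for it. The calls of Ccne1, Cdk1, Cdt1, Mcm2 and Mcm5 were lost in 4 or 5 of the 6 fits that left out 1 library, with limma adjusted p-values of 0.0603 to 0.149. The other named members did not pass. They included Rrm2 (1.44 ± 0.43, limma adjusted p = 0.0616), Pcna (0.88 ± 0.30, limma adjusted p = 0.0860), E2f1 (0.64 ± 0.26, limma adjusted p = 0.139) and Bub1 (1.14 ± 0.32, limma adjusted p = 0.0534). Mki67 had a difference of 1.29 ± 0.45 (limma adjusted p = 0.0947) and Top2a of 1.26 ± 0.45 (limma adjusted p = 0.0998), both without overlap. Ccnb1 had 0.89 ± 0.46 (limma adjusted p = 0.216) with IMQ library 1 among the control values, and Ube2c and Kif11 had 0.97 ± 0.30 (limma adjusted p = 0.0680) and 1.06 ± 0.36 (limma adjusted p = 0.0873).

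With restraint in both groups, imiquimod went with small differences in both directions. CRS+IMQ against CRS skin is also a comparison across tables. Here 5 members were higher by limma (adjusted p under 0.05), against 33.8% of all genes tested, and 9 were lower, against 25.2%. Both shares of the members were under those of all genes. The 5 higher members, Aurka, Birc5, Cdc20, Cenpa and Tpx2, all act in mitosis. Their share of the mitosis members was also under that of all genes, and a difference between the roles was not tested. The 9 lower members were Ccne2, Cdc45, Chek1, Mcm2, Mcm5, Mcm6, Mcm7 and Pcna of replication and Kif23 of mitosis. The median difference was -0.14 for replication and 0.05 for mitosis members, against 0.06 for all genes tested. Quantile normalization shifted the median of all genes to -0.07 and gave 2 members higher and 18 lower. The count of lower members was 5 without CRS+IMQ library 2 and 4 without CRS library 2.

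Mcm7 showed the largest fall, with 9.95, 10.9 and 9.62 FPKM in CRS+IMQ libraries, against 14.7, 15.1 and 15.7 FPKM in CRS libraries (difference -0.54 ± 0.05, limma adjusted p = 0.000321). Mcm2 fell by a like amount (-0.47 ± 0.05, limma adjusted p = 0.000425), as did Ccne2 (-0.48 ± 0.08, limma adjusted p = 0.00246) and Cdc45 (-0.41 ± 0.08, limma adjusted p = 0.00545). Pcna differed by -0.25 ± 0.07 (limma adjusted p = 0.0186) and Mcm5 by -0.13 ± 0.04 (limma adjusted p = 0.0499), and the Mcm5 call was lost in each of the 6 fits that left out 1 library. Among mitosis members, Cenpa had 4.67, 4.41 and 4.54 FPKM in CRS+IMQ libraries, against 2.996, 3.35 and 3.34 FPKM in CRS libraries (0.39 ± 0.06, limma adjusted p = 0.00143). Tpx2, an activator of Aurora A, had 5.26, 5.32 and 5.76 FPKM in CRS+IMQ libraries, against 3.87, 4.28 and 3.91 FPKM in CRS libraries (0.36 ± 0.06, limma adjusted p = 0.00237). Cdc20 (0.31 ± 0.07, limma adjusted p = 0.0129) and Birc5, the passenger protein survivin (0.21 ± 0.04, limma adjusted p = 0.00403), rose less. Under quantile normalization neither passed, at 0.14 for Cdc20 (limma adjusted p = 0.132) and 0.08 for Birc5 (limma adjusted p = 0.151), while Tpx2 gave 0.24, Pcna -0.42 and Mcm5 -0.27. The libraries of the 2 groups did not overlap for any of these genes. Proliferation markers did not pass, with -0.14 ± 0.05 for Mki67 (limma adjusted p = 0.0501) and -0.06 ± 0.06 for Top2a (limma adjusted p = 0.399). Cdk1, Ccnb1, Rrm2, Ccne1 and E2f1 lay between 0.04 (E2f1, limma adjusted p = 0.543) and 0.18 (Ccnb1, limma adjusted p = 0.128).

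In a fit over all 12 libraries, the effect of restraint differed with and without imiquimod for most replication genes. That fit took the same spread for every group. The median SD of the members was 0.06 in CRS+IMQ, 0.08 in CRS, 0.22 in control and 0.68 in IMQ skin. With spreads so unequal, its p-values may be too small. For the difference of the 2 restraint effects, (CRS+IMQ minus IMQ) minus (CRS minus control), 23 members were below 0 by limma over all 12 libraries (adjusted p under 0.05), against 21.2% of all genes tested. By the same limma fit 0 were above 0 (also 0 at an unadjusted p under 0.05), against 28.1% of all genes. The 23 comprised 17 of 19 replication members and 6 of 24 mitosis members, and the mitosis share is near that of all genes. All 43 estimates were below 0, with a median of -1.13 against 0.04 for all genes tested. The value was -1.66 ± 0.23 for Ccne2 (limma adjusted p = 0.000190), -1.52 ± 0.25 for Gins1 (limma adjusted p = 0.000556) and -1.87 ± 0.37 for Mcm2 (limma adjusted p = 0.00176). Mcm5 gave -1.80 ± 0.41 (limma adjusted p = 0.00406) and Chek1 gave -0.89 ± 0.19 (limma adjusted p = 0.00287). Pcna gave -1.13 ± 0.33 (limma adjusted p = 0.0153). In these 6 genes CRS stood above control and CRS+IMQ below IMQ in their group means.

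Among mitosis members the same test passed for Cdk1 (-1.55 ± 0.43, limma adjusted p = 0.0124), Ube2c (-1.25 ± 0.36, limma adjusted p = 0.0144), Bub1 (-1.20 ± 0.36, limma adjusted p = 0.0178) and Kif11 (-1.27 ± 0.40, limma adjusted p = 0.0235). Mki67 (-1.43 ± 0.50, limma adjusted p = 0.0356) and Top2a (-1.31 ± 0.50, limma adjusted p = 0.0491) passed narrowly. Of the replication members, Rrm2 (-1.37 ± 0.47, limma adjusted p = 0.0339) and Ccne1 (-1.03 ± 0.35, limma adjusted p = 0.0321) passed as well. E2f1 (-0.61 ± 0.29, limma adjusted p = 0.109) and Ccnb1 (-0.71 ± 0.52, limma adjusted p = 0.279) did not pass. Without IMQ library 1 the count of members below 0 was 40, and with each restraint group averaged to 1 sample, in the same way as above, it was 1. The calls of Mki67, Top2a, Rrm2 and Ccne1 were lost in 9, 11, 8 and 9 of the 12 fits that left out 1 library.

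Other genes of the pathway gave counts of a like kind in CRS against control skin, where 14.8% of all genes tested were higher and 27.2% lower. Of 49 further replication genes 43 were tested, of which 32 were higher and 1 lower by limma (adjusted p under 0.05). They included the fork protein Clspn (0.85 ± 0.07, limma adjusted p = 0.000496), the histone chaperone subunit Chaf1b (1.03 ± 0.09, limma adjusted p = 0.000519) and the single-strand binding protein Rpa2 (0.73 ± 0.07, limma adjusted p = 0.000646). Of 60 further mitosis genes 50 were tested, of which 18 were higher and 3 lower. The first by p were Hjurp, a chaperone of Cenpa (0.73 ± 0.09, limma adjusted p = 0.00160), Cdca2 (0.67 ± 0.10, limma adjusted p = 0.00302) and the spindle protein Tacc3 (0.56 ± 0.10, limma adjusted p = 0.00634). The median difference was 0.62 for the further replication and 0.35 for the further mitosis genes.

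Genes upstream of S phase moved in part. Of 10 genes of G1 entry, 4 were higher and 1 lower in CRS than in control skin by limma, against 14.8% and 27.2% of all genes. Mycn, a Myc family transcription factor, had 6.87, 6.37 and 7.35 FPKM in CRS libraries, against 1.22, 1.67 and 1.25 FPKM in controls (difference 1.73 ± 0.10, limma adjusted p = 0.000212). Ccnd2, a cyclin D (0.49 ± 0.07, limma adjusted p = 0.00238), and E2f3 (0.56 ± 0.08, limma adjusted p = 0.00286) rose less. Of 17 brakes of the cycle 16 were tested, of which 7 were lower and 0 higher by limma (0 higher at an unadjusted p under 0.05). Lower calls made up 27.2% of all genes tested. Cdkn1a, an inhibitor of cyclin-dependent kinases, had 25.8, 24.5 and 25.9 FPKM in CRS libraries, against 80.8, 79.9 and 58.8 FPKM in controls (difference -1.47 ± 0.14, limma adjusted p = 0.000723). The inhibitors Cdkn2b (-1.64 ± 0.16, limma adjusted p = 0.000879) and Cdkn2c (-0.63 ± 0.09, limma adjusted p = 0.00339) were lower too.

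In CRS+IMQ against IMQ skin, 10 of the 43 further replication genes tested were lower and 0 higher by limma (1 higher at an unadjusted p under 0.05), a share near the 17.6% of all genes called lower. Rpa1 (-1.65 ± 0.11, limma adjusted p = 0.000205), the repair glycosylase Ung (-1.19 ± 0.25, limma adjusted p = 0.0142) and Rpa2 (-0.92 ± 0.23, limma adjusted p = 0.0246) had the smallest p. Of the 50 further mitosis genes tested, 2 were lower and 0 higher (0 at an unadjusted p under 0.05), namely securin, Pttg1 (-0.63 ± 0.13, limma adjusted p = 0.0121), and the kinetochore gene Cenph (-1.04 ± 0.23, limma adjusted p = 0.0158). Of the 10 genes of G1 entry, 1 was lower and 2 were higher by limma. The lower gene was Mycn, with 0.484, 0.592 and 0.644 FPKM in CRS+IMQ libraries, against 5.21, 21.3 and 11.3 FPKM in IMQ libraries. Its difference was -2.93 ± 0.44 (limma adjusted p = 0.00396). The higher genes were Cdk6 (0.44 ± 0.10, limma adjusted p = 0.0189) and Myc (0.29 ± 0.07, limma adjusted p = 0.0249). The order of the 3 IMQ libraries for Mycn was that of the members. Of the brakes, Cdkn1c was higher (0.95 ± 0.18, limma adjusted p = 0.00994), and Btg2 (-0.42 ± 0.06, limma adjusted p = 0.00429) and Lin52 (-0.44 ± 0.13, limma adjusted p = 0.0399) were lower. Of the other lists, IMQ against control skin gave 26 of 43 further replication genes higher but 4 of 50 further mitosis genes, and 0 lower in either by limma (0 at an unadjusted p under 0.05). Among all genes tested 5.69% were higher and 12.6% lower in IMQ than in control skin.

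Markers of other cell types differed between CRS and control skin beside the members. By limma, 20 of the 21 anagen hair follicle markers were higher in CRS than in control skin and 1 was lower. Among all genes tested 14.8% were higher and 27.2% lower. All 9 macrophage markers were lower, summing to 204 to 215 FPKM in CRS and 954 to 1407 FPKM in control libraries. Of the 9 basal keratinocyte markers 7 were lower and 1 was higher, and of the 7 T cell markers tested 6 were lower. Of the 8 skeletal muscle markers 4 were higher and 1 was lower. In CRS+IMQ against IMQ skin, 7 of 21 hair follicle markers were lower and 2 higher, and all 8 neutrophil and all 9 macrophage markers were higher. All 6 fibroblast markers were higher too, while all 8 skeletal muscle markers were lower. The shares of all genes tested were 17.6% lower and 17.8% higher. The neutrophil markers summed to 2731 to 2854 FPKM in CRS+IMQ libraries. No marker of these lists was at 0 in all libraries, and their part in the members' differences was not tested.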

How the data were processed

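Total RNA from dorsal skin was sequenced for 12 libraries, 3 in each of 4 groups. The authors deposited FPKM values in 2 tables, control with CRS libraries in one and IMQ with CRS+IMQ libraries in the other, and a listed value of 0.0001 was set to 0. The submitters' processing notes name StringTie, edgeR, limma and mm10, while an aligner is not given in the sources used here. Both deposited tables also hold the authors' fold changes (ratios of group means), log2 fold changes, p-values and q-values, which are named as theirs wherever printed. Read depth is unknown, since low FPKM values did not resolve into whole fragments.

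Differences were tested with limma 3.58.1 in R 4.3.3 (with statmod 1.5.0) on log2(FPKM + 1), with a mean-variance trend and robust variances. Each pair of groups used its own 6 libraries, and the difference of the restraint effects used all 12. Testing was limited to genes that reached 1 FPKM in 3 or more libraries, p-values were adjusted over all 14864 by Benjamini-Hochberg, and tests were two-sided. A pseudocount of 1 understates changes of low genes. The script was tested on simulated data. With 3 against 3 libraries an exact permutation test cannot go below 0.1. The members, the lists and the genes to name were chosen with earlier results of these data known. The named genes were 10 set members and the 4 of each role with the smallest p in each comparison, with others given for contrast. Other pathway genes were named by the 3 smallest p of each list. Promoters were matched by symbol to RefSeq.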

Additional observations from a re-analysis of the deposited data

Results flagged for a closer look

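In 23 members the effect of restraint differed with and without imiquimod by the test of the difference itself, (CRS+IMQ minus IMQ) minus (CRS minus control), in limma over 12 libraries. All 23 values were negative. Among licensing and helicase genes they were -1.87 for Mcm2, -1.80 for Mcm5, -1.54 for Mcm7, -1.16 for Mcm6 and -0.95 for Mcm4. The loaders Cdt1 and Cdc6 gave -1.35 and -1.18, and Cdc45 gave -1.42. The GINS subunits Gins1 and Gins2 gave -1.525 and -1.31. The cyclins Ccne2 and Ccne1 gave -1.66 and -1.03, and the kinase Chek1 gave -0.89. In nucleotide supply and at the fork, Rrm2 gave -1.37, Tyms -1.22, Rrm1 -0.85 and Pcna -1.13. Of the mitosis members, Cdk1 gave -1.55, Mki67 -1.43, Top2a -1.31, Kif11 -1.27, Ube2c -1.25 and Bub1 -1.20. The estimate for each of these genes rests on 3 IMQ libraries that differed in level, and each restraint effect was taken within a table. The fit took the same spread for all groups though their spreads were unequal, so its p-values may be too small.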

How the results depend on the processing

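In CRS against control skin, the 26 higher members became 16 without a filter on low values, 17 with a filter of 5 FPKM, 11 with all 12 libraries in one fit and 0 with CRS averaged to 1 sample (3 at an unadjusted p under 0.05). Leaving out 1 library gave 14 to 25 higher and 0 to 1 lower. In CRS+IMQ against IMQ skin, the 3 lower members became 5 under quantile normalization, 5 under array weights, 0 without the filter (4 at an unadjusted p under 0.05), 1 at 5 FPKM, 9 with all libraries and 0 after averaging (1 at an unadjusted p under 0.05), and leaving out 1 library gave 0 to 36. In IMQ against control skin, the 10 higher members became 19 under quantile normalization, 0 without the filter (20 at an unadjusted p under 0.05) and 31 with all libraries, with 2 to 35 on leaving out 1 library. In CRS+IMQ against CRS skin, the 5 higher and 9 lower members became 2 and 18 under quantile normalization, 4 and 11 under median-ratio scaling, 0 and 0 after averaging and 0 and 1 with all libraries, and leaving out 1 library gave 4 to 5 and 4 to 7. The higher share of those calls was 35.7%, against 10% under quantile normalization. For the difference of restraint effects, the 23 became 14 at 5 FPKM and 1 after averaging, with 17 to 40 on leaving out 1 library.

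With a replicate block the counts were 20 in CRS against control, 2 in CRS+IMQ against IMQ, 11 in IMQ against control, 4 higher and 5 lower in CRS+IMQ against CRS, and 22 for the difference of effects. Libraries of the same number did not deviate together (correlations -0.11 to 0.04), and no label states that the numbers pair them. The small spread within CRS and CRS+IMQ leaves little in which a pairing could show. Values changed sign for E2f1 in CRS+IMQ against IMQ without IMQ library 2 (range on leaving out 1 library -0.474 to 0.0175). They also did so in CRS+IMQ against CRS under quantile normalization for Ccne1 (-0.00501), E2f1 (-0.0960), Rrm2 (-0.0764) and Cdk1 (-0.0493), and for Cdk1 without CRS+IMQ library 2 (-0.0317) or CRS library 2 (-0.0131), where leaving out 1 library gave -0.0317 to 0.137. Quantile normalization moved the median of all genes to 0.08 in CRS against control, -0.07 in CRS+IMQ against CRS and -0.13 in the difference of effects, against -0.08, 0.06 and 0.04. Over all settings and named members, 1210 values kept direction and side of the threshold, 175 lost it, 53 passed it and 7 changed sign. The averaged fits take their spread from the IMQ and control libraries alone and assume that a lone sample varies like them, so their count of 0 between CRS+IMQ and CRS (0 at an unadjusted p under 0.05) says little. Fewer genes or samples entered the filtered, averaged and left-out fits; for the other settings the cause was not tested. The median SD of the members in IMQ (0.68) was 0.85 with a pseudocount of 0.1 and 0.62 under median-ratio scaling. Depth is unknown and sets no interval here.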

Other observations

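IMQ library 3 lay between libraries 1 and 2 over most genes that separated those libraries. Of 1035 genes at least 2-fold apart between libraries 1 and 2, 909 (87.8%) had library 3 between them. Its median position was 0.40 of the way from library 1 to library 2 (interquartile range 0.32 to 0.50). Among the 36 members that far apart, 35 had it between, at a median position of 0.39 (0.36 to 0.42). In the controls, library 2 lay between libraries 1 and 3 in 79.4% of 598 such genes, at a median of 0.39 with a wider interquartile range of 0.21 to 0.65.

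Foxm1, a transcription factor of late cell cycle genes, did not follow the order of most members in the IMQ libraries, nor did Chek1 and Gins2. Foxm1 had 3.72, 0.771 and 0.685 FPKM in CRS+IMQ libraries, against 0.531, 2.39 and 5.42 FPKM in IMQ libraries.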
